A study of Rattus norvegicus with 12 samples.

Results

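The genes described here encode the proteasome. They are the 40 genes, of 14217 with a probe set of a single gene symbol, whose symbol is Psma, Psmb, Psmc, Psmd, Psme or Psmf followed by a number. Each gene is represented by its brightest probe set, the one with the highest mean over the 12 arrays; 31 genes had 1 probe set and 9 had several. RefSeq holds 44 rat genes with such symbols. Of the other 4, Psmb6 and Psme3 were measured only by probe sets shared with other genes and Psma8 and Psmb11 by no probe set of a single symbol, so none of them has a value here.

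The arrays were single-colour Rat 230 2.0 arrays of RNA from male adult Sprague-Dawley rats, in 4 groups of 3. Rats of the hepatitis, cirrhosis and hepatocellular carcinoma (HCC) groups were injected intraperitoneally with diethylnitrosamine (DEN), a liver carcinogen that hepatocytes activate, at 70 mg/kg once weekly for 10 weeks, and were killed in week 5, weeks 13 to 14 and weeks 23 to 24, counted from the DEN treatment without saying whether from its start or end. Control rats received injections of distilled water, and their time of killing is not stated. The tissue label reads liver for all 12 arrays, while the series text calls the last 3 HCC tissue. The labels give 12 rats killed per time point but not whether an array holds RNA of 1 rat or of a pool, and the p-values reflect the spread between arrays, which may be technical in part.

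The proteasome degrades proteins that carry ubiquitin chains. Its core particle stacks rings of alpha subunits (Psma genes), which form the gate, around rings of beta subunits (Psmb genes), some of which carry the peptide-cutting sites. A 19S regulatory particle, made of a base of ATPases (Psmc genes) and further base and lid subunits (Psmd genes), binds ubiquitin chains, removes them and unfolds the substrate. In cells exposed to interferon, and constitutively in immune cells, the subunits encoded by Psmb8, Psmb9 and Psmb10 replace those of Psmb5, Psmb6 and Psmb7 to form the immunoproteasome, which together with the PA28 activator (Psme1 and Psme2) favours peptides for presentation by MHC class I.

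Several arrays stood apart. Control replicate 3 had the highest summed intensity of MHC class II genes among the controls, at 9638, against 1684.5 and 1581.5 on control replicates 1 and 2, and of macrophage markers, at 10933.1 against 5769.3 and 5235.5. HCC replicate 2 had a summed hepatocyte marker intensity of 56883 and a summed proliferation marker intensity of 2042.4. HCC replicates 1 and 3 had 42921.1 and 37654.6 for hepatocyte markers and 5559.8 and 4405.3 for proliferation markers. For the Gapdh controls of RNA integrity, the 3' probe set exceeded the 5' one, a gap that grows as RNA is degraded, by a log2 difference of 1.36, 2.46 and 3.2 on HCC replicates 1, 2 and 3 and at most 1.03 on the other 9 arrays. All 8 hepatocyte markers were measured and none was at 0 on any array.

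In a fit of all 12 arrays, no proteasome gene passed the test against control in hepatitis or cirrhosis, whereas in HCC 12 of 40 did. Levels were compared as log2(intensity + 16) with limma over all 12 arrays, and a gene passed where its p, adjusted by the Benjamini-Hochberg method over all 14217 genes, was under 0.05. Each gene has 1 estimate of the spread shared by the 4 groups. The standard errors and p-values of comparisons without HCC therefore include the spread of the HCC arrays. Where a gene's HCC arrays spread more widely, this overstates the error between the other groups and understates it for HCC. The members' median SD was 0.422 (log2) in HCC and 0.064 to 0.1 in the other groups. Fits of only 2 groups called 3 of 40 members in hepatitis, 11 in cirrhosis and 4 in HCC against control, beside 6.3%, 18.9% and 22.6% of all genes. Counts below are from all 12 arrays unless another fit is named. In hepatitis against control 0 of 40 proteasome genes passed, where 4% of all genes did, and 1 had an unadjusted p under 0.05, against 17.3% of all genes. In cirrhosis against control 0 of 40 passed, against 3.33% of all genes, with 4 at an unadjusted p under 0.05, against 16.3%. In HCC against control 2 rose and 10 fell, 12 of 40 beside 38.8% of all genes, of which 20% rose and 18.7% fell. Those that rose were Psma4 and Psmd12, and those that fell were Psmb1, Psmb2, Psmc1, Psmc3, Psmd1, Psmd4, Psmd8, Psmd9, Psmd10 and Psmd13.

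Between consecutive stages, 0 of 40 passed in cirrhosis against hepatitis, beside 0.957% of all genes, and 3 had an unadjusted p under 0.05, beside 11.4%. In HCC against cirrhosis 14 of 40 passed, beside 37.1% of all genes. Psma4, Psmd7 and Psmd12 rose, 3 genes beside 19.4% of all genes. Psma5, Psmb1, Psmb2, Psmd1, Psmd6, Psmd8, Psmd9, Psmd10, Psmd13, Psme1 and Psmf1 fell, 11 genes beside 17.7%. A moderated F test over the 3 stages passed 10 of 40, beside 40.4% of all genes. The share of proteasome genes that passed was thus near or below that of all genes in each of these comparisons.

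The members' median log2 difference from control was 0.11 in hepatitis, with 28 genes above 0 and 12 below, -0.01 in cirrhosis, with 19 above and 21 below, and -0.17 in HCC, with 17 above and 23 below. The median over all genes was -0.00249, -0.000208 and 0.00735 in the same order, with 49.1%, 49.9% and 51.5% of them above 0. Proteasome genes are bright, and among the 4863 genes with a mean at least that of the dimmest member the median in HCC was -0.13. In HCC against control 42.9% of those bright genes lay above 0, and 57.6% of them passed the test. The heat map of all 40 genes on the 12 arrays shows the control, hepatitis and cirrhosis arrays of most genes close together and the HCC arrays apart from each other.

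**Figure D1:**
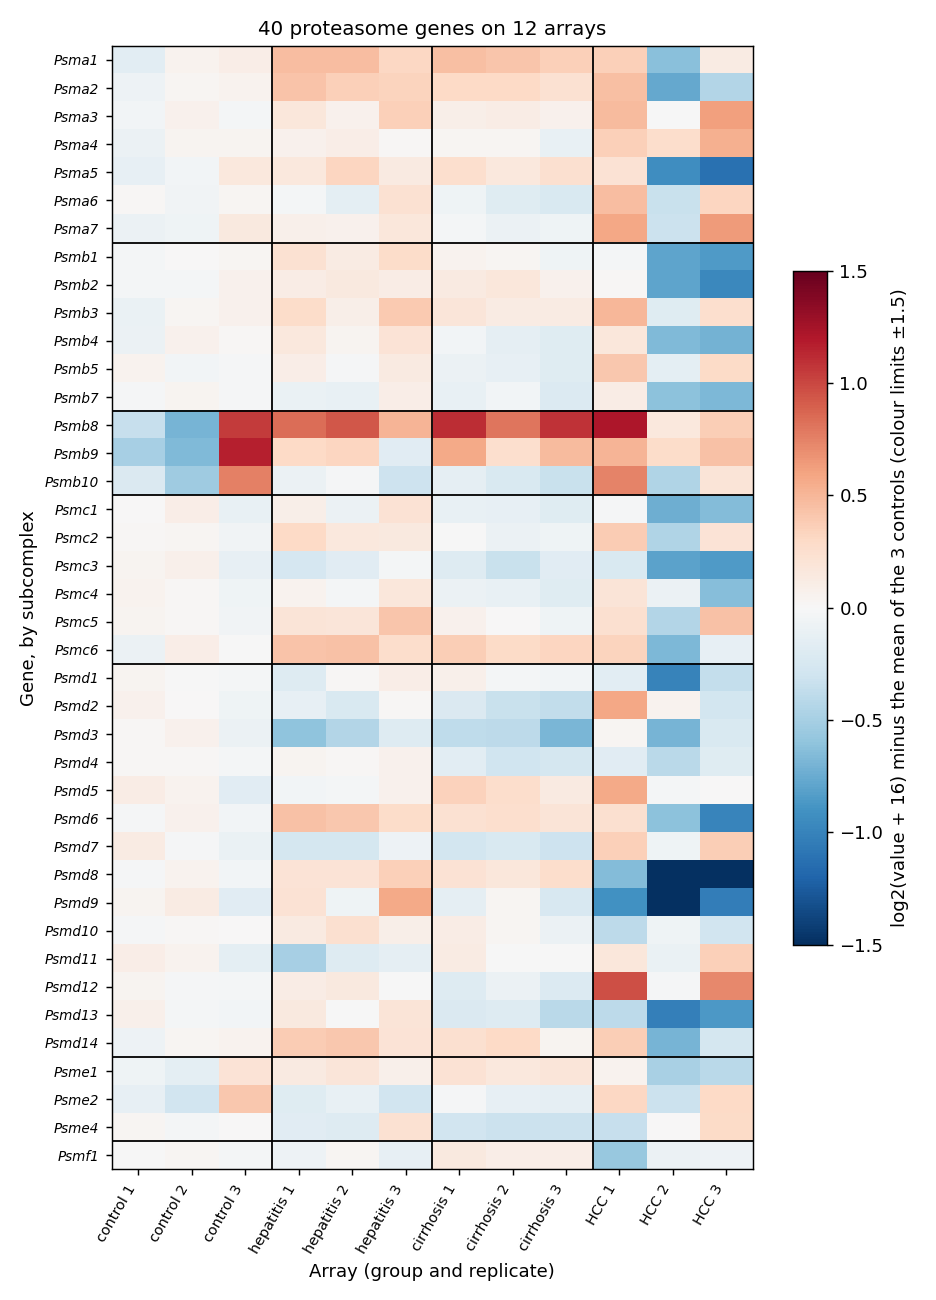
Heat map of the 40 proteasome genes (rows, grouped by subcomplex) on the 12 arrays (columns); colour gives log2(value + 16) minus the mean of the 3 controls, from blue (lower) to red (higher), with colours limited at 1.5 either way. HCC replicate 1 was the highest HCC array for 31 genes and HCC replicate 2 the lowest for 27, and Psmb8, Psmb9 and Psmb10 were high on control replicate 3.

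The levels of the immunoproteasome genes ranged more widely between the 3 control arrays than between the group means. Psmb8, which encodes the immune counterpart of the chymotrypsin-like subunit Psmb5, measured 330.1, 255 and 892 on control replicates 1, 2 and 3. It measured 769, 822 and 609.8 in hepatitis, 933, 751 and 916 in cirrhosis, and 1002, 473 and 554 in HCC. All 9 arrays of DEN-treated rats lay above control replicates 1 and 2, and control replicate 3 lay within their range. With all 12 arrays the log2 difference from control was 0.76 ± 0.41 (SE; adjusted p = 0.4019) in hepatitis, 1.00 ± 0.41 (adjusted p = 0.2611) in cirrhosis and 0.58 ± 0.41 (adjusted p = 0.3052) in HCC, with n = 3 arrays per group throughout. The 95% confidence interval in HCC ran from -0.34 to 1.50.

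Psmb9, a further catalytic immune subunit, measured 408, 364 and 1330.5 on the controls, 725, 735 and 518 in hepatitis, 873, 702 and 817 in cirrhosis, and 838, 711 and 801 in HCC. Here too control replicates 1 and 2 were the lowest of the 12 arrays, and control replicate 3 was the highest. Its log2 differences from control were 0.15 ± 0.40, 0.43 ± 0.40 and 0.41 ± 0.40 (SE) in hepatitis, cirrhosis and HCC, with adjusted p = 0.9238, 0.7102 and 0.459. Psmb10, the immune counterpart of Psmb7, measured 255, 203 and 517 on the controls, 281, 295 and 238 in hepatitis, 271, 255 and 236 in cirrhosis, and 514, 215 and 346 in HCC. Its arrays overlapped between all groups, with log2 differences of -0.14, -0.23 and 0.16 and adjusted p = 0.7476 in HCC.

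**Figure D2:**
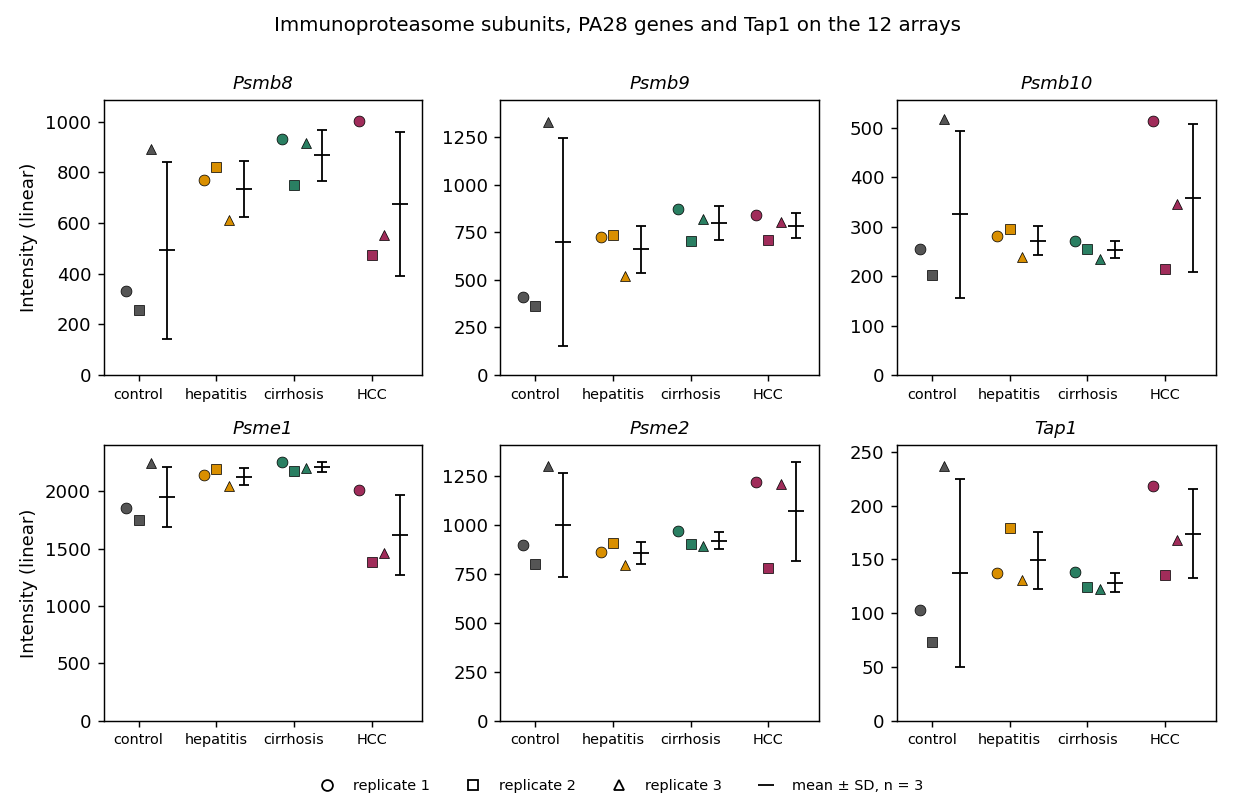
Linear intensity (vertical axes, from 0) of Psmb8, Psmb9, Psmb10, Psme1, Psme2 and Tap1 by group; each symbol is 1 array, shaped by replicate number, and the bar beside them is the mean ± SD of 3 arrays. Control replicate 3 (triangle) was the highest control array in all 6 panels, at 1330.5 for Psmb9 against 408 and 364.

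The excess of control replicate 3 was large for the immune members. Its level was 3.45-fold the mean of the other 2 controls for Psmb9, 3.05-fold for Psmb8 and 2.26-fold for Psmb10, followed by 1.53-fold for Psme2 and 1.25-fold for Psme1. On the log2 scale these 5 genes were 0.32 to 1.75 above the mean of control replicates 1 and 2, and the other 35 members were between -0.25 and 0.24. The interferon-regulated transcription factor Irf1 was 3.49-fold higher on that array, the peptide transporter subunit Tap1 2.7-fold, the interferon-inducible GTPase Gbp2 9.84-fold and the MHC class II chaperone Cd74 5.55-fold. Tap2 was only 1.36-fold and B2m 1.28-fold higher there. Summed interferon response genes were 6285.7 on that array, against 5347.6 and 4370.5 on control replicates 1 and 2. Summed B and plasma cell markers were 136.8, between the 257.4 and 106.5 of control replicates 1 and 2. Summed T and NK cell markers were 649, against 313.1 and 300.6 on control replicates 1 and 2. Irf1, Tap1, Gbp2, Cd74 and the summed MHC class II, macrophage, and T and NK cell markers were thus high with Psmb8 and Psmb9 on this array. The summed interferon response genes were higher there to a lesser degree, and the summed B and plasma cell markers were not. The part of these genes and lists in the levels was not tested. In bulk tissue such as this, more cells of a type and more RNA per cell cannot be told apart.

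Without control replicate 3, 1 of the 12 fits that each leave out an array, Psmb9 passed in all 3 stages and Psmb8 in 2. Psmb9 then differed from control by 0.73 (adjusted p = 0.04781) in hepatitis, 1.01 (adjusted p = 0.02185) in cirrhosis and 0.99 (adjusted p = 0.002483) in HCC. Psmb8 differed by 1.28 (adjusted p = 0.05068), 1.52 (adjusted p = 0.03912) and 1.10 (adjusted p = 0.01835). Psmb10 did not pass, at 0.24, 0.15 and 0.54 (adjusted p = 0.808, 0.9091 and 0.1812). In that fit 1 of 40 members was called higher in hepatitis, beside 1.51% of all genes, and 2 in cirrhosis, beside 0.795%. In HCC 3 were called higher, Psma4 with Psmb8 and Psmb9, beside 16.5%, and 5 lower, beside 16.6%. Only 2 control arrays remain in this comparison. Over the 21 other alternatives the adjusted p in HCC ran from 0.137 to 0.725 for Psmb8 and from 0.195 to 0.911 for Psmb9. In cirrhosis Psmb8 ran from 0.0151, with array weights, to 0.638 and Psmb9 from 0.154 to 0.987, and in hepatitis the lowest was 0.08 for Psmb8 and 0.496 for Psmb9.

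Psmb8 and Psmb10 were also set against the constitutive subunits they replace, Psmb5 and Psmb7, on the same array; Psmb9 was not, since its partner Psmb6 has no value here. The log2 difference Psmb8 less Psmb5 was -2.23, -2.49 and -0.77 on control replicates 1, 2 and 3. It was -1.1, -0.88 and -1.46 in hepatitis, -0.63, -0.9 and -0.56 in cirrhosis, and -1.03, -1.53 and -1.74 in HCC. Since these are 2 different probe sets, only the change of the difference between groups is read. It was 0.68 ± 0.56 (SE) in hepatitis, 1.13 ± 0.55 in cirrhosis and 0.40 ± 0.58 in HCC, with exact 2-sided permutation p = 0.4, 0.2 and 0.6, where 3 arrays against 3 cannot give less than 0.1. For Psmb10 less Psmb7 the changes were -0.10, -0.12 and 0.56, with exact permutation p = 0.9, 1 and 0.3. Adjusted over these 6 tests, the lowest p was 0.8. Without control replicate 3 the Psmb8 changes were 1.22, 1.66 and 0.93 and the Psmb10 changes 0.28, 0.27 and 0.94, and no exact p below 0.2 can be had from 3 arrays against 2.

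The promoters of the immune genes are printed because interferon is known to act on such genes through a short sequence element, and those of constitutive genes named below are printed beside them. The sequences are RefSeq's, from the GRCr8 assembly, from 250 bases before to 10 bases after the annotated start, on the gene's strand; 36 of 40 members had one. The windows lie at chr20:4657022-4657281 (minus strand) for Psmb8, chr20:4668750-4669009 (plus) for Psmb9, chr19:50743283-50743542 (minus) for Psmb10, chr15:33052742-33053001 (minus) for Psme2, chr15:32047370-32047629 (minus) for Psmb5, chr1:93608680-93608939 (minus) for Psmd8 and chr12:39018255-39018514 (minus) for Psmd9. Capitals mark matches, on either strand, to the core of the interferon-stimulated response element (GAAANNGAAA) or, in Psmb5 and Psmd9, of the antioxidant response element (TGACNNNGC), where N is any base.
Psmb8: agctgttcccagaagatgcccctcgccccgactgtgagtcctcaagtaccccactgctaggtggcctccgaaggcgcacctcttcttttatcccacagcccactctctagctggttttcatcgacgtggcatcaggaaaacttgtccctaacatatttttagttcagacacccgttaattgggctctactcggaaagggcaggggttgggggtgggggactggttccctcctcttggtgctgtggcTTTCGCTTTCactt
Psmb9: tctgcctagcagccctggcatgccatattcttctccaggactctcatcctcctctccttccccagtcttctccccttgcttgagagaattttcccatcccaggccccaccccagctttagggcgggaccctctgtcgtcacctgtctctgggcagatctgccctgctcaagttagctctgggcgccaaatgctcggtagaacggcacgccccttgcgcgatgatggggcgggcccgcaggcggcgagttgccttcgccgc
Psmb10: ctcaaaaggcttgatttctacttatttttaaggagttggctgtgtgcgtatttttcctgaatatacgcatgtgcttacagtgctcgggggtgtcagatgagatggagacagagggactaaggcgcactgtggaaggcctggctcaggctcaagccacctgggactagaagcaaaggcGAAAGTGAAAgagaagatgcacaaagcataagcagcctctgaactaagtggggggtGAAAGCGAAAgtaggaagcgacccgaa
Psme2: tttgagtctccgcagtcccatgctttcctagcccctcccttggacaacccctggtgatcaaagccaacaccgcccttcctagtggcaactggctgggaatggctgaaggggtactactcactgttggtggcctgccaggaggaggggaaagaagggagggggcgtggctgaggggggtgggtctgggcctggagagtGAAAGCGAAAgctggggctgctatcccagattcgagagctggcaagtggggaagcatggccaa
Psmb5: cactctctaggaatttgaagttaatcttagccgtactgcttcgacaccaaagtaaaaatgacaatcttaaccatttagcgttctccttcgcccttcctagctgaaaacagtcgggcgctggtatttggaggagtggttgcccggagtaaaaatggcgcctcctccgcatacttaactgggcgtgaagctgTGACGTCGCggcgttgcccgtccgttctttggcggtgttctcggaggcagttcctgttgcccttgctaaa
Psmd8: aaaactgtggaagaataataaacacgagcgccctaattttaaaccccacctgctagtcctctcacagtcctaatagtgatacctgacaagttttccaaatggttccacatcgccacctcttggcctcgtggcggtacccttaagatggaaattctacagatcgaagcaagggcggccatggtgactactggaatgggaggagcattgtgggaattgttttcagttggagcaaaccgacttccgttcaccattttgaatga
Psmd9: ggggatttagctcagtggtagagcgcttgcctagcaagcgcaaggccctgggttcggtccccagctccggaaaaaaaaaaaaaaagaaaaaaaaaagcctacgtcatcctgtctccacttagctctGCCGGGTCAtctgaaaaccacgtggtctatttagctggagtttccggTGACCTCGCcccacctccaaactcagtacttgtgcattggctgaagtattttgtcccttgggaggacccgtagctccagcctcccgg

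The interferon element's core was found in 6 of the 36 members, or 16.7%, namely Psma4, Psmb3, Psmb8, Psmb10, Psmd7 and Psme2, against 3.5% (1177 of 33469) of all promoters of that length. Psmb10 had a match that began 73 bases before the start and another 17 bases before it, Psmb8 had one 4 bases before the start on the opposite strand, and Psme2 had one 53 bases before it. The Psmb9 window held no match. Psmb9 lies head to head with Tap1, whose start on the opposite strand is 457 bases away, and Tap1's own window held a match. The antioxidant element's core was found in 6 members as well, in Psma3, Psmb2, Psmb5, Psmd1, Psmd9 and Psme4, which is 16.7% against 10.5% (3530) of all promoters. The Psmd8 window held neither core. A match of letters is a description and does not show binding.

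The PA28 activator opens the gate of the core particle and is built from the products of Psme1 and Psme2. Psme1 measured 1857, 1751 and 2248 on the controls, 2139.8, 2198 and 2045 in hepatitis, 2259, 2174 and 2202 in cirrhosis, and 2015, 1383 and 1458 in HCC. All 3 HCC arrays were below all 3 cirrhosis arrays, and Psme1 fell by 0.47 on the log2 scale between them (adjusted p = 0.02189). This call was lost after quantile normalization, where the difference was -0.12 (adjusted p = 0.4631), and without any 1 cirrhosis array or HCC replicate 2 or 3 (adjusted p up to 0.0722). Psme2 measured 899, 803 and 1303 on the controls, 862, 909.8 and 798 in hepatitis, 969.9, 902 and 892 in cirrhosis, and 1224, 779 and 1213 in HCC. Its groups overlapped, with a log2 difference of 0.10 ± 0.20 (SE) between HCC and control (adjusted p = 0.7431). Psme4, which encodes the PA200 activator, differed from control by -0.05, -0.31 and -0.01 in the 3 stages and did not pass; its 3 probe sets disagreed in hepatitis and in HCC, as given with the other such genes below.

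Among the core particle's alpha subunits, Psma4 was the member called in HCC under every setting run. It measured 918, 1005 and 1007 on the controls, 1020.4, 1049 and 989.7 in hepatitis, 993, 993 and 899 in cirrhosis, and 1257, 1172 and 1424 in HCC. All 3 HCC arrays lay above the other 9. The mean was 1284 ± 128 (SD, n = 3) in HCC and 977 ± 51 in control, a 1.31-fold rise and a log2 difference of 0.39 ± 0.08 (SE; adjusted p = 0.003953). Against cirrhosis the log2 difference was 0.41 (adjusted p = 0.002955). Over the 12 fits that leave out 1 array and the 10 other settings the difference from control ran from 0.31 to 0.76, and the highest adjusted p was 0.0418.

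In hepatitis the 7 alpha subunit genes all had log2 differences above 0, beside 49.1% of all genes. They ran from 0.02 to 0.41 with a median of 0.19, and none passed. Psma1 and Psma2 had the largest. Psma1 measured 465, 544 and 563 on the controls and 724, 726 and 652 in hepatitis, so that the groups did not overlap, with a log2 difference of 0.41 ± 0.20 (SE; adjusted p = 0.3491). In cirrhosis it measured 722, 701 and 674, again above all controls, at 0.41 (adjusted p = 0.3741). Psma2 measured 729, 787 and 802 on the controls, 1041, 992 and 978 in hepatitis and 957, 952 and 905 in cirrhosis. In HCC both genes spread widely, from 333 to 674 for Psma1 and from 448 to 1064 for Psma2. Psma5 measured 1135, 501 and 441 in HCC against 1161, 1086 and 1154 in cirrhosis and was called lower than in cirrhosis at -0.83 (adjusted p = 0.04068); only without HCC replicate 1 was that call kept when 1 array was left out, with adjusted p up to 0.135 otherwise. Psma3, Psma6 and Psma7 were not called in HCC against control, at 0.36 (adjusted p = 0.06794), 0.15 and 0.30.

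Of the 6 constitutive beta subunit genes, Psmb1 and Psmb2 fell in HCC. Psmb1 measured 1381, 1405 and 1430.0 on the controls, 1647, 1526 and 1699.9 in hepatitis, 1455, 1436 and 1342 in cirrhosis, and 1373, 807 and 775 in HCC. HCC replicate 1 was close to the controls and replicates 2 and 3 were far below them. Psmb1 fell by 0.56 ± 0.18 (SE) on the log2 scale (adjusted p = 0.03104), a call lost without any 1 control or without HCC replicate 2 or 3 (adjusted p up to 0.103). Psmb2 measured 838, 834 and 890.4 on the controls, 926, 946 and 924 in hepatitis, 937, 963 and 895 in cirrhosis, and 863, 486 and 429 in HCC, with the same HCC replicate at the controls' level. It fell by 0.58 ± 0.20 (adjusted p = 0.04222), a call lost without any 1 array other than HCC replicate 1 (adjusted p up to 0.135). Of Psmb1 and Psmb2, neither call was kept after quantile normalization.

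Psmb5, the constitutive chymotrypsin-like subunit, measured 1607, 1508 and 1528 on the controls, 1660.2, 1532 and 1702 in hepatitis, 1454, 1415 and 1362 in cirrhosis, and 2055, 1396 and 1892 in HCC. In HCC the arrays straddled the controls, at a log2 difference of 0.18 ± 0.12 (SE; adjusted p = 0.2698). Psmb7, the constitutive trypsin-like subunit, measured 859.5, 898 and 863 on the controls and 943, 566 and 543 in HCC, at -0.39 ± 0.17 (adjusted p = 0.1044). Psmb3 and Psmb4 did not pass either, at 0.19 and -0.40. In hepatitis 5 of the 6 constitutive beta genes had a log2 difference above 0, beside 49.1% of all genes, and in cirrhosis 3 did, beside 49.9%. Their median in hepatitis was 0.13, with a range of -0.04 to 0.25.

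The ATPases of the 19S base pull the substrate into the core. Psmc3 measured 686, 705 and 611 on the controls, 557, 589.6 and 654 in hepatitis, 582, 526 and 590.4 in cirrhosis, and 564, 376 and 363 in HCC. All 3 HCC arrays and all 3 cirrhosis arrays were below the controls. The fall in HCC was 0.63 ± 0.15 on the log2 scale (SE; adjusted p = 0.008084), from a mean of 667 ± 50 to 434 ± 113 (SD, n = 3). It was called in each of the 12 fits without 1 array and in 9 of 10 other settings, the exception being a fit of the control and HCC arrays alone (adjusted p = 0.0613). Psmc1 measured 382, 411 and 352 on the controls and 377, 222 and 238 in HCC. It fell by 0.47 ± 0.17 (adjusted p = 0.04966), a call lost without any 1 array other than HCC replicate 1 (adjusted p up to 0.147). Psmc2, Psmc4, Psmc5 and Psmc6 did not pass in HCC against control. In hepatitis 5 of the 6 ATPase genes lay above 0, beside 49.1% of all genes, with a median of 0.14.

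The largest changes among the 40 genes belonged to 19S genes of the Psmd series. Psmd8, which encodes the lid subunit Rpn12, measured 490.4, 516 and 482 on the controls, 576, 574 and 637 in hepatitis, 579, 559 and 598 in cirrhosis, and 309.6, 140.1 and 113 in HCC. Every hepatitis and cirrhosis array lay above every control, and every HCC array lay below all other 9 arrays. The mean was 187 ± 107 (SD, n = 3) in HCC and 496 ± 17.5 in control, a ratio of 0.38. Psmd8 fell by 1.45 ± 0.27 (SE) on the log2 scale against control (adjusted p = 0.002255) and by 1.67 against cirrhosis (adjusted p = 0.001043). In hepatitis and cirrhosis it did not pass, and over all settings the difference between HCC and control lay between -1.85 and -1.18.

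Psmd9 encodes p27, a chaperone that takes part in assembling the base and is not in the finished particle. It measured 291, 307 and 249.6 on the controls, 329, 268 and 424 in hepatitis, 254, 288 and 237 in cirrhosis, and 143, 85.6 and 129.6 in HCC. Its HCC arrays were the lowest of the 12, while the other groups overlapped. Psmd9 fell by 1.16 ± 0.19 (SE) against control (adjusted p = 0.00128), from a mean of 283 ± 29.7 to 119 ± 30.1 (SD, n = 3), and by 1.05 against cirrhosis (adjusted p = 0.002186). A second, dim probe set of Psmd9, with a mean of 27.1, differed by 0.01. Psmd13, which encodes the lid subunit Rpn9, measured 239, 222 and 221 on the controls, 254, 226 and 262 in hepatitis, 194, 198 and 168 in cirrhosis, and 169.9, 104 and 118 in HCC. The HCC and cirrhosis arrays were all below the controls and the hepatitis arrays, and Psmd13 fell in HCC by 0.76 ± 0.14 (adjusted p = 0.002569).

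Psmd8, Psmd9 and Psmd13 were called lower in HCC than in control in each of the 12 fits without 1 array and in each of the 10 other settings. The highest adjusted p among those fits was 0.0377, 0.0144 and 0.0327. With Psma4, these are the members whose call against control was kept under every setting. Psmd8, Psmd9 and Psmd13 were below every control, and Psma4 above every control, on each of the 3 HCC arrays. Summed hepatocyte markers were lowest and the 3' to 5' differences of the RNA controls highest on the HCC arrays, and their part in these changes was not tested.

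**Figure D3:**
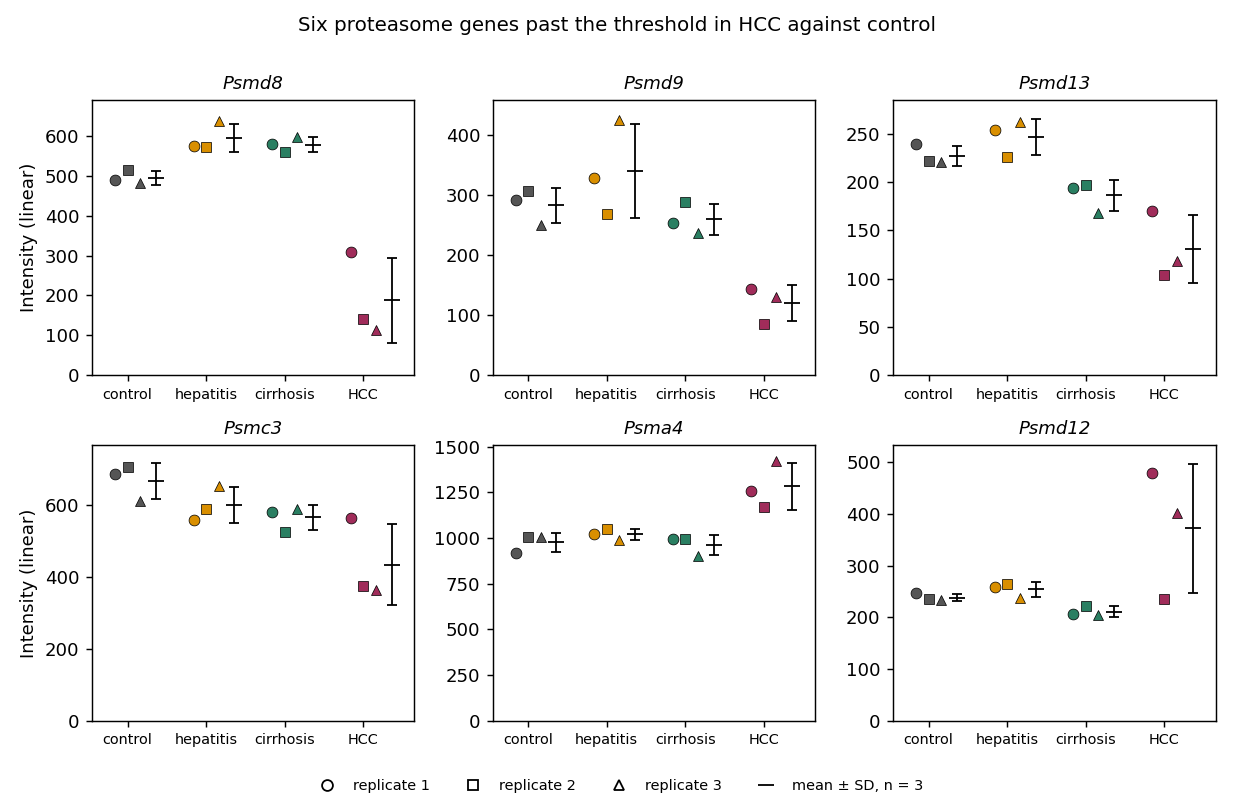
Linear intensity (vertical axes, from 0) of Psmd8, Psmd9, Psmd13, Psmc3, Psma4 and Psmd12 by group, for members that passed in HCC against control; symbols are arrays, shaped by replicate number, and bars are mean ± SD of 3 arrays. The 3 HCC arrays of Psmd8 and Psmd9 lie below, and those of Psma4 above, all 9 others, and for Psmd12 HCC replicate 2 lies at the controls' level.

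Psmd12, which encodes the lid subunit Rpn5, was the other member that rose. It measured 246, 235 and 233 on the controls, 259, 264 and 238 in hepatitis, 205, 223 and 204 in cirrhosis, and 479.5, 235 and 403 in HCC. HCC replicates 1 and 3 were far above all other arrays and replicate 2 was level with the controls. The log2 difference was 0.56 ± 0.20 (SE; adjusted p = 0.04828) against control and 0.72 (adjusted p = 0.01657) against cirrhosis. The call against control was lost without any 1 array other than HCC replicate 2 (adjusted p up to 0.142), and without replicate 2 the difference was 0.84.

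Psmd10 encodes gankyrin, a base assembly chaperone described as an oncoprotein of human liver cancer. It measured 261, 267 and 264 on the controls, 291, 314 and 281 in hepatitis, 287, 269 and 248 in cirrhosis, and 197, 251 and 214 in HCC. The HCC arrays lay just below the controls, and the fall was 0.25 ± 0.09 (SE; adjusted p = 0.04652). This call was lost in 10 of the 12 fits without 1 array (adjusted p up to 0.135), being kept without cirrhosis replicate 3 and without HCC replicate 2, and in 7 of the 10 other settings. Psmd4, whose product Rpn10 is a ubiquitin receptor, measured 394, 394 and 379.6 on the controls, 347, 313 and 321 in cirrhosis, and 344, 291 and 342 in HCC, and fell by 0.25 ± 0.07 in HCC (adjusted p = 0.01748). Its call was lost without control replicate 1 or 2 (adjusted p up to 0.0553) and in 5 of the 10 other settings, quantile normalization among them. Psmd1, the base scaffold Rpn2, measured 371, 360.2 and 352 on the controls and 322, 172 and 279 in HCC. It fell by 0.51 ± 0.18 (adjusted p = 0.0482), lost without any 1 array other than HCC replicate 1 (adjusted p up to 0.116).

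Against cirrhosis, Psmd6 (the lid subunit Rpn7) fell by 0.68 (adjusted p = 0.04959) and Psmf1, which encodes the PI31 inhibitor, by 0.36 (adjusted p = 0.03454). Psmf1 measured 557, 573 and 546 on the controls, 622, 602 and 600.1 in cirrhosis, and 371, 527 and 529 in HCC, so its HCC arrays were below both groups. The Psmd6 call was kept only without HCC replicate 1 among the fits without 1 array (adjusted p up to 0.149). The Psmf1 call was lost without control replicate 1 or any 1 cirrhosis array (adjusted p up to 0.0948). After quantile normalization the Psmd6 difference was -0.54 (adjusted p = 0.09851), that of Psmf1 -0.17 (adjusted p = 0.4461) and that of Psma5 -0.59 (adjusted p = 0.1077), so these 3 calls were lost. Psmd2, Psmd3, Psmd5, Psmd11 and Psmd14 passed in no comparison, with log2 differences in HCC against control of 0.12, -0.30, 0.18, 0.14 and -0.19.

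For some members the probe sets of a gene disagreed, in a fit of all probe sets. Psmd7, the lid subunit Rpn8, was called higher than in cirrhosis by its brightest probe set, at 0.49, and lower by its other one, at -0.56 (adjusted p = 0.001977), so its direction is not settled. The same pair gave 0.22 and -0.45 (adjusted p = 0.006892) against control. In hepatitis a dimmer probe set of Psme4 was called lower than in control at -0.40 (adjusted p = 0.03607), where its brightest gave -0.05 and the third 0.30 (adjusted p = 0.2922). It was the only probe set of a member called in hepatitis or cirrhosis against control. For Psme4 another dimmer probe set gave -1.12 (adjusted p = 0.0002822) in HCC against control where the brightest gave -0.01. For Psmd14, the deubiquitinating lid subunit, a dimmer one gave -1.11 (adjusted p = 0.03185) against -0.19, and for Psmc6 2 dimmer ones gave -0.61 (adjusted p = 0.03996) and -0.51 (adjusted p = 0.005433) against -0.15. In each of these 3 genes at least 1 dimmer probe set was called lower in HCC and the brightest was not called.

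Before HCC several members did not overlap with control although none passed. In hepatitis 13 of 40 members had all 3 arrays above all controls, beside 15.1% of all genes, and 1, Psmd3, had all 3 below, beside 15.6%. The 13 were Psma1, Psma2, Psmb1, Psmb2, Psmb3, Psmc2, Psmc5, Psmc6, Psmd4, Psmd6, Psmd8, Psmd10 and Psmd14. In cirrhosis 9 were all above, beside 18.1%, and 12 all below, beside 19.3%. From hepatitis to cirrhosis 14 were all below, beside 13.7%, and 3 all above, beside 13.1%. In HCC 1 was all above control, beside 24.1%, and 9 all below, beside 22.5%; against cirrhosis 3 were all above, beside 24.1%, and 7 all below, beside 22.9%.

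The members' median SD over 3 arrays was 0.422 (log2) in HCC, where control, hepatitis and cirrhosis had 0.071, 0.1 and 0.064. The bright genes had 0.334 in HCC and 0.098, 0.148 and 0.073 in control, hepatitis and cirrhosis, so a wide HCC spread is not particular to the members. The highest SD of a single member was that of Psmb9 in control, at 1.012. In a fit of only the hepatitis and control arrays, 3 members were called higher, beside 3.17% of all genes: Psma2 at 0.37 (adjusted p = 0.02840), Psmc6 at 0.38 (adjusted p = 0.04674) and Psmd6 at 0.38 (adjusted p = 0.03278). In a fit of only the cirrhosis and control arrays, 5 were called higher, beside 8.93%, and 6 lower, beside 9.94%. The higher were Psma1 at 0.41, Psma2, Psmc6, Psmd6 and Psmd8, and the lower were Psmd2, Psmd3 at -0.49, Psmd4, Psmd7, Psmd13 and Psme4 at -0.31. Psmd3, the lid subunit Rpn3, measured 188, 194 and 173 on the controls, 116, 132 and 160.1 in hepatitis and 138, 137 and 109 in cirrhosis, with no overlap.

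The split between members that rose and fell in HCC depended on the scaling and on single arrays. On the deposited scale 2 rose and 10 fell against control. After quantile normalization of the 12 arrays 8 rose, beside 20.4% of all genes, and 4 fell, beside 18.7%, with a member median of 0.06. Those that rose were Psma4 at 0.76, Psma7 at 0.67, Psmb3 at 0.53, Psmb5 at 0.54, Psmd2 at 0.42, Psmd7 at 0.45, Psmd11 at 0.48 and Psmd12 at 0.68. Those that fell were Psmc3 at -0.43, Psmd8 at -1.43, Psmd9 at -1.17 and Psmd13 at -0.77. With each array centred on the bright genes, a setting added after seeing the data that shifts the median of all genes to 0.145, 6 rose, beside 29.6%, and 6 fell, beside 14.4%, with a member median of -0.03. Against cirrhosis quantile normalization gave 7 higher, beside 19.2%, and 3 lower, beside 18.4%. The 3 were Psmd8, Psmd9 and Psmd13, and the other 8 of the 11 members called lower on the deposited scale were not called.

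**Figure D4:**
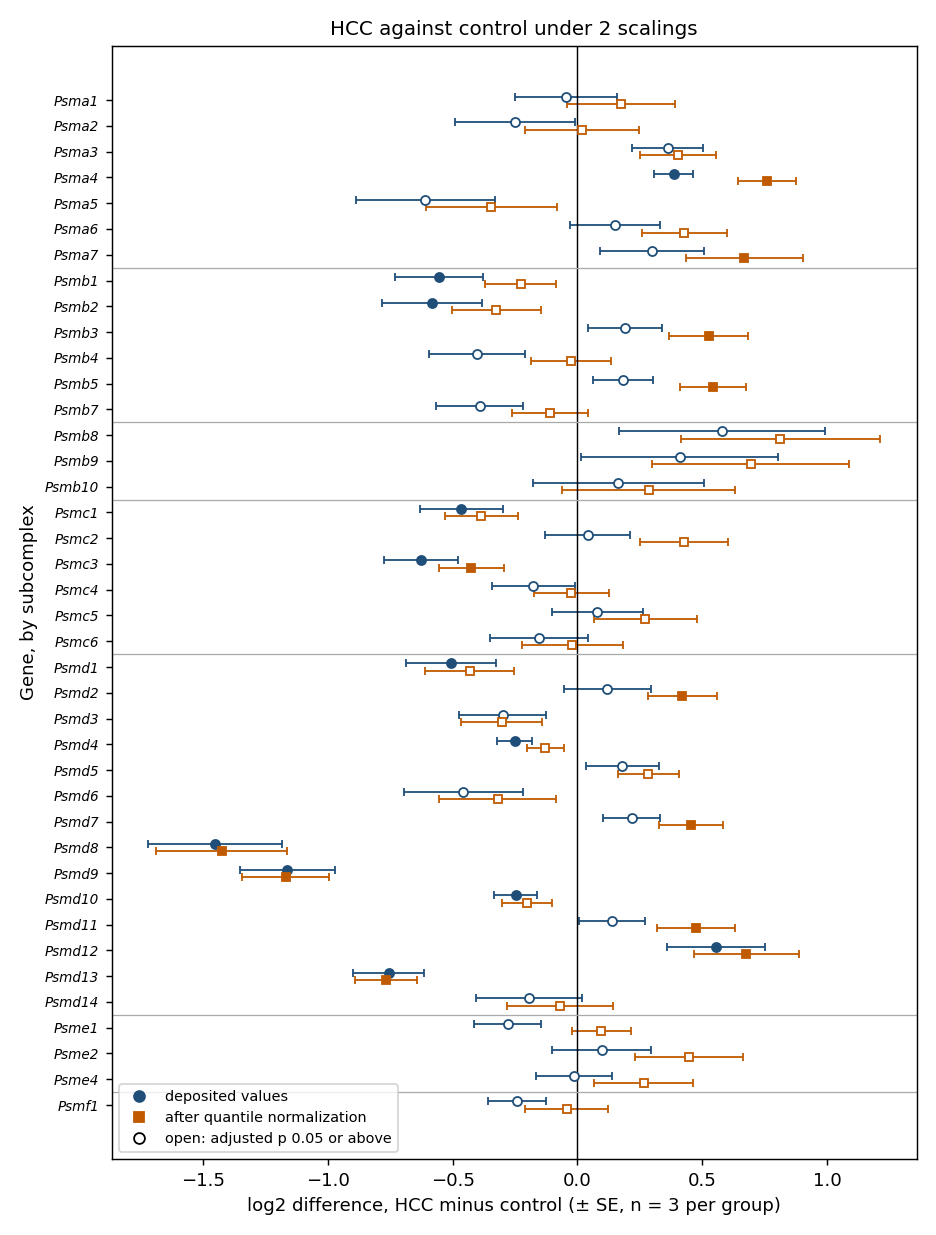
Log2 difference between HCC and control for the 40 members (horizontal axis, bars ± SE, n = 3 arrays per group), on the deposited scale (blue circles) and after quantile normalization (orange squares); filled symbols passed at an adjusted p under 0.05. Psmd8, Psmd9, Psmd13 and Psmc3 stay below 0 and Psma4 and Psmd12 above 0 under both, while 8 members rather than 2 are called higher after quantile normalization.

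Single HCC arrays had as large an effect. HCC replicate 1 was the highest of the 3 for 31 of 40 members, and replicate 2 the lowest for 27 of 40, where they were so for 44.4% and 33.4% of the bright genes. The median deviation of the members from the control mean was 0.24, -0.44 and -0.15 on replicates 1, 2 and 3, beside -0.02, -0.12 and -0.26 for the bright genes. Without HCC replicate 2, 10 members were called higher than in control, beside 23.9% of all genes, and 6 lower, beside 20.7%. The added calls included Psma7, an alpha subunit gene that measured 1034, 1055 and 1222 on the controls and 1649, 879 and 1719 in HCC, at 0.61 (adjusted p = 0.0002441). Without replicate 1, 1 was called higher, beside 19.1%, and 17 lower, beside 19.2%, and without replicate 3, 1 higher, beside 18%, and 5 lower, beside 16.1%. Psmd8, Psmd9, Psmd13 and Psmc3 were lower and Psma4 was higher in all 3 of these fits.

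The genes that regulate, assemble and feed the proteasome were described from lists of related genes. Of 4 measured regulators, Nfe2l2 (NRF2), a transcription factor of the oxidative stress response, measured 490.1, 454 and 465 on the controls, 1654, 1393 and 1055 in hepatitis, 1192, 1281 and 1351 in cirrhosis, and 421, 492 and 236 in HCC. All hepatitis and cirrhosis arrays lay above all controls, and Nfe2l2 rose by 1.49 ± 0.24 (SE; adjusted p = 0.009757) in hepatitis and 1.41 ± 0.24 (adjusted p = 0.01669) in cirrhosis, and fell by 1.75 from cirrhosis to HCC (adjusted p = 0.0004331). Nfe2l1 (NRF1), which drives proteasome genes when proteasome activity is short, did not pass in any stage, at -0.25, -0.21 and -0.02. Ddi2, the protease that activates it, fell in HCC by 1.07 ± 0.19 (adjusted p = 0.001961), and Ngly1, the enzyme that removes its sugars, by 0.84 ± 0.09 (adjusted p = 0.0001829). Ddi2 and Ngly1 were 2 of 4 regulators called lower in HCC than in control, beside 18.7% of all genes. Nfe2l2 was the 1 regulator called in hepatitis and in cirrhosis against control, beside 4% and 3.33% of all genes called.

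Of 12 measured assembly factors and bound proteins, 3 rose and 2 fell in HCC against control, beside 20% and 18.7% of all genes, and none passed in hepatitis or cirrhosis. Psmg1, an assembly chaperone of the alpha ring, measured 786, 838 and 677 on the controls and 382, 274 and 213 in HCC, and fell by 1.39 ± 0.17 (SE; adjusted p = 0.0003061). Pomp, which guides beta ring assembly, fell by 0.49 ± 0.10 (adjusted p = 0.003474). The proteasome-bound deubiquitinase gene Usp14 rose by 0.63 ± 0.11 (adjusted p = 0.001779), and Ecpas, a proteasome adaptor, by 0.50 ± 0.11 (adjusted p = 0.005899). Of 8 measured genes of ubiquitin supply and shuttling, 1 rose in HCC against control, beside 20% of all genes. It was the shuttle factor Ubqln2, at 0.64 (adjusted p = 0.03431), and no other passed against control.

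Of 10 class I antigen processing genes, Pdia3 and Tap2 rose in HCC, each by 0.48 (adjusted p = 0.03696 and 0.04927), 2 genes beside 20% of all genes, and none passed in hepatitis or cirrhosis. Tap1 measured 102, 72.9 and 237 on the controls, 137, 179.5 and 130.5 in hepatitis, 138, 124 and 122 in cirrhosis, and 218, 135 and 168 in HCC, the same order of control arrays as for Psmb8, and did not pass (0.43 in HCC, adjusted p = 0.3331). B2m, the light chain of MHC class I, differed by 0.15, 0.22 and -0.23 from control without passing, and fell by 0.46 from cirrhosis to HCC (adjusted p = 0.03014). Irf1 measured 158, 112 and 471 on the controls and differed by 0.39, 0.13 and 0.44 without passing.

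Of 19 measured interferon response genes, 1 passed in hepatitis, where 4% of all genes did, and 6 in cirrhosis, where 3.33% did, all higher than in control. In HCC 6 passed, all higher, beside 20% of all genes called higher. Isg15, a ubiquitin-like modifier, rose by 0.86 (adjusted p = 0.007064), 1.51 (adjusted p = 0.0007033) and 2.58 (adjusted p = 7.214e-06). The antiviral genes Oas1a and Mx2 rose in cirrhosis by 1.74 and 1.69 (adjusted p = 0.005155 for each). Median differences of the list were 0.23, 0.46 and 0.44, beside 0.15, 0.43 and 0.41 for the 3 immunoproteasome genes, none of which passed with all controls.

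Markers of immune cells varied with the groups as well. Summed B and plasma cell markers (4 of 7 measured, none at 0, 1 under 16 on all arrays) ran from 106.5 to 257.4 in control, 370.6 to 674.5 in hepatitis, 655.1 to 724.2 in cirrhosis and 391.9 to 499.1 in HCC, so that every array of DEN-treated rats lay above all controls. Of these 4 genes, Jchain and Mzb1 were called higher in hepatitis and only Jchain in cirrhosis and in HCC, beside 4%, 3.33% and 38.8% of all genes called. The list's median log2 difference in HCC was 0.13. Summed MHC class II genes (8 of 8 measured, none at 0) were 4427.7 to 9705.1 on those 9 arrays, all above control replicates 1 and 2 and with control replicate 3 within their range, as for Psmb8. Summed T and NK cell markers (12 of 14 measured, none at 0) ran from 300.6 to 649 in control, 315.7 to 492.7 in hepatitis, 407.1 to 449 in cirrhosis and 343.6 to 725.3 in HCC. Summed macrophage markers (11 of 13 measured, none at 0) ran from 5235.5 to 10933.1, 8528.2 to 11195.7, 8223.1 to 8644.5 and 3879.3 to 8030.1 in the same order. In HCC against control 6 of the 12 T and NK genes were called higher and none lower, Cd3g, Cd3e, Lck and Cd3d among them, and of the 11 macrophage genes 1 was called higher and 5 lower, beside 20% and 18.7% of all genes. The part of these markers in the levels of Psmb8 and Psmb9 was not tested.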

How the data were processed

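Gene expression of 12 rat samples was measured on single-colour arrays, 3 in each of 4 groups; groups and replicate numbers are those of the labels. The authors deposited a linear intensity for each probe set on each array. Per the submitters' processing notes MAS5 and RMA were named, and their role was not given in the sources used here. Median intensity per array was 28.69 to 30.94, and 33.9% to 35.8% of values were under 16. No array column was left out (0 unused), and precision is limited by the number of arrays.

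Of 31099 probe sets, 57 were array controls, 20826 had 1 gene symbol, 436 had several and 9780 none. Symbols come from the platform annotation, checked against RefSeq genes of GRCr8: 0 were updated and 13 were not found there. Probe sets of several genes were left out, which removes Psmb6 and Psme3; a comparison of Psmb9 with Psmb6 was planned and could not be run for that reason. Per gene the brightest probe set was used, and 4525 of 14217 genes had several.

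Values were analysed as log2(value + 16), which understates changes of dim genes. Tests were limma 3.58.1 (lmFit, eBayes; prior degrees of freedom 1.8) in R 4.3.3, 2-sided, 1 fit of all 12 arrays, called under 0.05 after Benjamini-Hochberg adjustment across the 14217 genes. The fit was tested on simulated data with the same spread in all 4 groups. The spread here was larger in HCC, so that simulation does not show how the fit behaves in such a case. Errors beside log2 differences are standard errors, which for single genes come from the spread shared by the 4 groups, and beside intensities standard deviations. Pairs of subunits were compared by exact permutation. Promoter letters were searched with Python 3.11.15, pandas 2.3.3 and numpy 2.4.6, and figures drawn with matplotlib 3.10.9.

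Alternatives were 1 or 64 in place of 16, the dimmest 30% of genes left out, quantile normalization, the mean of a gene's probe sets, fits of 2 groups only, a trended robust prior, array weights, the replicate number as a block, each array left out, and a centring added after seeing the data.

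The members and lists were chosen with earlier results of these data known, so they are no independent evidence. Values are given for each member that passed in any comparison, for the immunoproteasome genes, their partners and PA28, and of the other lists for up to 4 called members with the largest difference, with Nfe2l1, Nfe2l2, Irf1, Tap1 and B2m in any case. Members that did not pass, and arrays or probe sets singled out, were chosen after their values were seen.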

Additional observations from a re-analysis of the deposited data

Results flagged for a closer look

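Among the 6 probe sets that several gene symbols share, and that no comparison above uses, 3 had all arrays of a stage above all 3 controls. The probe set shared by Psma3 and Psma3l was 0.31 (log2) above control in hepatitis and 0.24 in cirrhosis. The probe set shared by Psmb6 and Psmb6l1 was 0.23 above control in hepatitis. Of the 4 probe sets shared by Psme3, Aoc3 and G6pc1, 1 was 0.57 above control in HCC, 2 had all HCC arrays below all controls, at -3.65 and -4.07, and the other overlapped with control, at 0.30. These differences were not tested, and which of the named genes gave the signal cannot be told apart.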

How the results depend on the processing

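Of the members called against control in HCC, Psma4, Psmd8, Psmd9 and Psmd13 kept direction and call in all 12 fits without 1 array and all 10 other settings, and Psmc3 in all but the fit of 2 groups. The value added before log2, the filter on dim genes, the trended prior and the mean of probe sets left each count of called members, both directions together, within 1.5 times. By direction, the trended prior gave 6 lower in HCC against control in place of 10, and 64 added gave 1 higher in place of 2. Fits of 2 groups called 3 members in hepatitis, 11 in cirrhosis and 4 in HCC against control, and 4 in HCC against cirrhosis, beside 6.3%, 18.9%, 22.6% and 24.7% of all genes. Array weights called 4 in hepatitis, 13 in cirrhosis, 2 in cirrhosis against hepatitis and 22 by the F test, beside 15.2%, 21.7%, 6.79% and 44.9%. The weights were 0.2273, 0.2389 and 0.3621 on HCC replicates 1, 2 and 3, and 0.8789 or more on every other array. The cause of these counts was not tested. Without 1 array the counts ran from 0 to 2 in hepatitis, 0 to 2 in cirrhosis, 5 to 18 in HCC against control, 0 to 1 in cirrhosis against hepatitis, 4 to 22 in HCC against cirrhosis and 6 to 19 by the F test. The share of all genes called in those fits ran from 1.27% to 7.58%, 0.689% to 6.21%, 29.5% to 44.6%, 0.274% to 2.34%, 29% to 43.5% and 33.4% to 46.5% in the same order. With the mean of all probe sets Psmd7 differed by -0.037 between HCC and cirrhosis in place of 0.49.

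The replicate number as a block gave 8 called members in HCC against control, 12 in HCC against cirrhosis, 9 by the F test, beside 37.6%, 36.1% and 37.8% of all genes, and 0 in the other comparisons. The labels give the groups the same replicate numbers without saying what they share. Deviations from the group means correlated across genes by -0.252 to 0.365 over 18 pairs of arrays with the same number, 3 of them over 0.1. Over 36 pairs with different numbers they ran from -0.324 to 0.202, 5 of them over 0.1. The deviations of the 3 arrays of a group sum to 0, so these correlations cannot decide whether the numbers pair the samples.

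The 3 arrays per group, the spread between HCC arrays and the unknown normalization limit these results: a member that missed the threshold is not shown to be unchanged.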
